A study of Homo sapiens with 73 samples.

Results

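Integrins and cadherins are the 2 large families of membrane proteins that hold animal cells to their matrix and to each other. The genes described here were taken by symbol: every ITGA and ITGB gene of the integrin alpha and beta chains and every gene named CDH plus a number, without the other cadherin subfamilies. They numbered 49 of the 36233 genes in the deposited table, with 18 alpha chains, 8 beta chains and 23 cadherins. The cells were CHLA-9, an established Ewing sarcoma line with the EWSR1-FLI1 fusion by its label, followed by RNA sequencing through an evolution experiment in culture. 7 treated lineages, R1 to R7, received chemotherapy at each time point, VDC at odd and EC at even ones, for 5 cycles or 10 time points. VDC combines vincristine with doxorubicin and cyclophosphamide, whereas EC pairs etoposide with cyclophosphamide, and each exposure ran for 5 days at the dose with 70% effect before regrowth without drug. 3 lineages, R8 to R10, received DMSO, and 1 library came from the parental line before any exposure. The libraries numbered 49 from treated lineages, 23 from DMSO lineages and 1 from the parental line, all descending from 1 cell line, and the libraries of a lineage are repeated samples of the same culture.

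An integrin is a pair of 1 alpha and 1 beta chain. ITGB1 pairs with most alpha chains to bind fibronectin, collagens and laminins, ITGAV pairs with ITGB1, ITGB3, ITGB5, ITGB6 or ITGB8 to bind vitronectin or latent TGF-beta, and ITGB2 pairs with ITGAL, ITGAM, ITGAX or ITGAD on white blood cells to bind ICAM proteins. Classical cadherins bind the same cadherin on the next cell and hold p120 and beta-catenin on their cytoplasmic side. Ewing sarcoma cells grow as loosely attached small round cells, and their adhesion has been studied in relation to spread.

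Values are quantile-normalized counts, given below as levels without a unit, and the treated columns were normalized apart from the DMSO and parental columns, so that levels set side by side across arms rest on distributions that differed by up to 0.257% above 100. Log2 differences are on the log2(value + 1) scale. Of the Ewing sarcoma markers, PRKCB was at 8512 or more, CCND1 at 18942 or more and NR0B1 at 840 or more in every library, and FLI1, EWSR1, LIPI and STEAP1 were at 261 or more. NKX2-2 ranged down to 4.88 and FATE1 did not exceed 23.9. CD99 was listed at no more than 2.31 in all 73, but the gene is annotated on both X and Y, and how reads that match both copies were counted is not given in the sources used here, so this value cannot be read as its expression. Of the 8 markers tested, 3 fell and 0 rose in the treated slopes, beside 22.8% of all tested genes falling and 16.3% rising. 6 libraries stood apart in many genes. The last treated libraries of R1 (time point 9) and R2 (time point 10), called late treated below, had 9.81% of the tested genes above and 12.5% below all 47 other treated libraries. The 4 late DMSO libraries, R9 at time points 8 and 9 and R10 at time points 9 and 10, had 4.37% above and 2.2% below all 19 other DMSO libraries. In bulk RNA, fewer cells of a type and less RNA per cell cannot be told apart.

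The 49 genes were measured at very uneven levels. Of the 49, 17 were at 10 or more in every library, 20 reached 10 in some libraries only and 12 were under 10 in all 73. The 27 with a mean of at least 10 were tested, comprising 11 alpha chains, 6 beta chains and 10 cadherins, among 14565 genes tested in all. Divided by exon length (GENCODE v29), the highest level among beta chains was that of ITGB1, with a median of 953 per kb in treated and 917 per kb in DMSO libraries. ITGA5, the alpha chain of the main fibronectin receptor, had medians of 297 and 356 per kb, and ITGAV had 253 and 234 per kb, in treated and DMSO libraries in that order. ITGB5, which binds vitronectin with ITGAV, stood at 215 per kb in treated and 212 per kb in DMSO libraries. The range of each of these 4 genes overlapped between the arms.

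**Figure D1:**
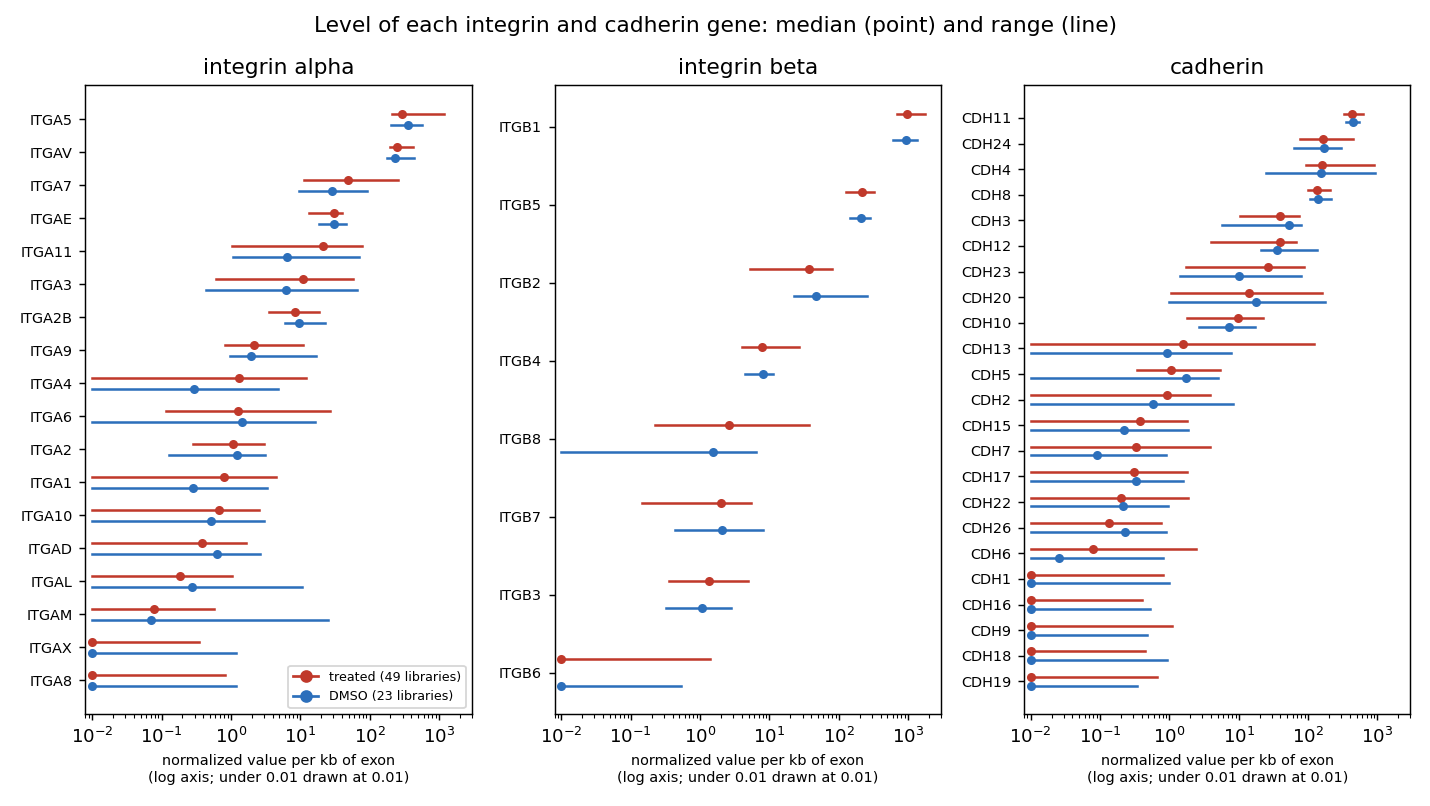
Median (point) and range (line) of the normalized value per kb of exon, on a log axis, for all 49 genes in the 49 treated (red, upper) and 23 DMSO (blue, lower) libraries. ITGB1, CDH11, ITGA5, ITGAV and ITGB5 lay highest in both arms, and 5 cadherins had medians drawn at the floor of the axis in both arms.

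Among cadherins CDH11, known as OB-cadherin of mesenchymal and bone-forming cells, was highest, with medians of 430 per kb in treated and 449 per kb in DMSO libraries. CDH24 followed with 166 and 169 per kb, then CDH4 (R-cadherin) with 156 and 152 per kb and CDH8 with 136 and 140 per kb, treated before DMSO in each. The cadherins that define tissues in textbooks were low. CDH1 (E-cadherin of epithelia) never exceeded a level of 6.07, CDH2 (N-cadherin) reached 40.7 at most, and CDH5 of endothelium reached 33.0. Of the 10 epithelial markers, EPCAM, GRHL2, KRT19 and 3 others were at 47.9 or less in every library (EPCAM at no more than 4.52), while KRT18 reached 1164, KRT8 396, ESRP1 213 and CLDN4 62.9.

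**Figure D2:**
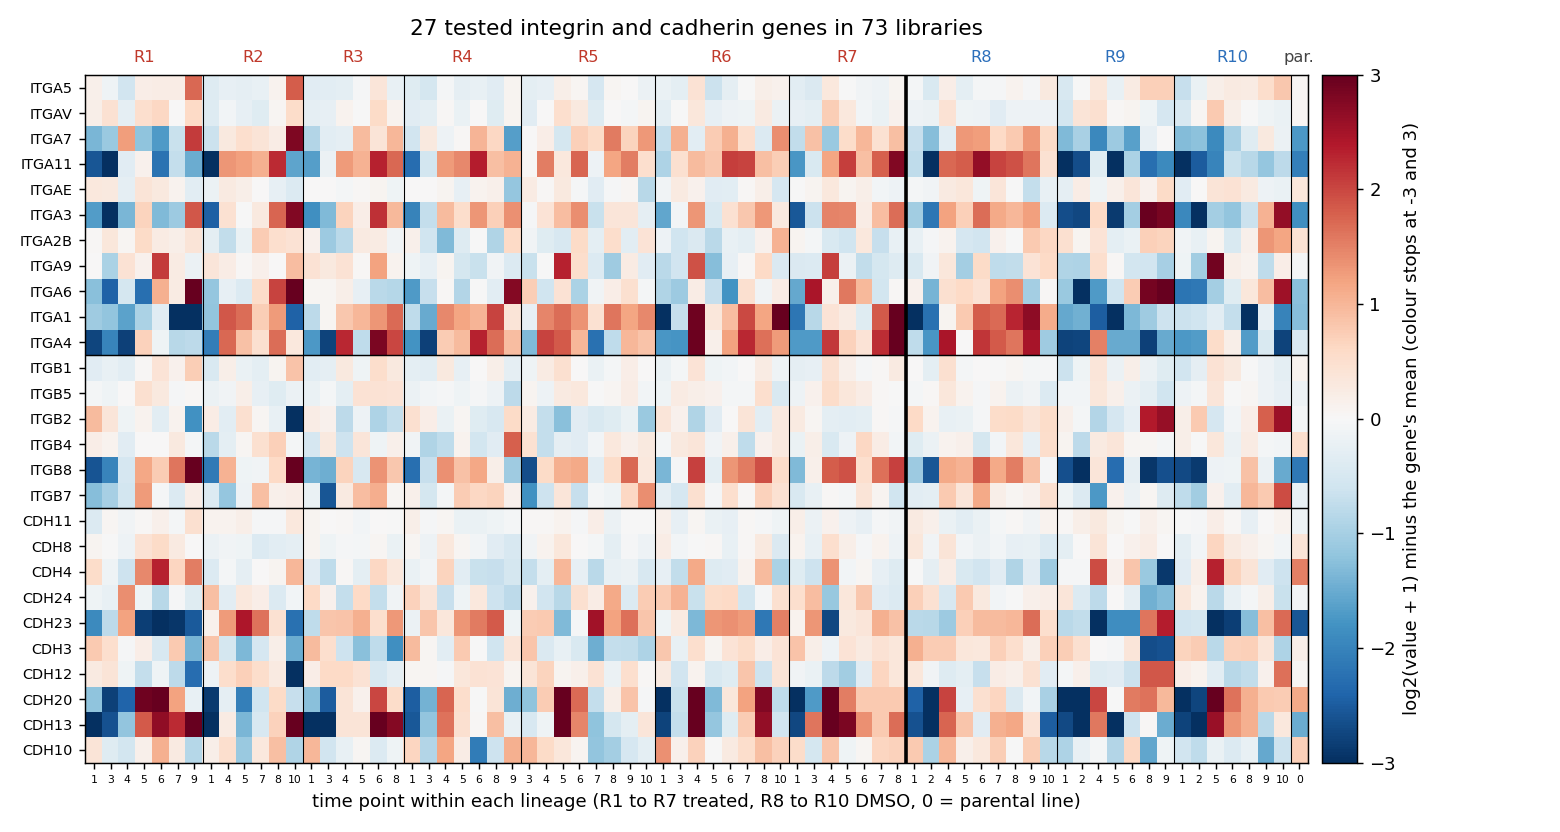
log2(value + 1) minus the mean of the gene for the 27 tested genes (rows, by family and level) in 73 libraries (columns, by lineage and time point; treated left of DMSO, then the parental line). ITGB1, ITGAV, CDH11 and CDH8 were nearly even across columns, whereas ITGA4, ITGB8, CDH13 and CDH20 were low in the first columns of most lineages.

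Averaged over time, no member differed between treated and DMSO lineages in limma after Benjamini-Hochberg adjustment. The count was 0 of 27 members, beside 0 of 14565 genes (0% called). At an unadjusted p under 0.05 there were 5 members and 1965 genes. The smallest p-value was that of ITGB2, the beta chain shared by the white blood cell integrins (chromosome 21, 44885953 to 44931989, minus strand, GRCh38). Its time-adjusted log2 level was 8.00, 7.72, 7.83, 8.18, 7.64, 8.13 and 8.07 in R1 to R7, against 8.45, 8.72 and 8.89 in R8 to R10. All 7 treated lineages lay below all 3 DMSO lineages, 1 of 27 members to separate in this comparison, beside 3.01% of all tested genes. The mean was 7.94 ± 0.21 in treated lineages (SD, n = 7) and 8.69 ± 0.22 in DMSO lineages (SD, n = 3), a difference of -0.75 ± 0.13 (SE) with an adjusted p of 0.214. The two-sided exact permutation p over lineages was 0.00833, the smallest that 120 splits allow. It is not adjusted for the choice of ITGB2, which had the smallest p of 27 members. The difference was -0.21 without the 4 late DMSO libraries, with a limma adjusted p of 0.609.

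Next in order were ITGAE, the alpha chain that pairs with ITGB7 and binds E-cadherin, and ITGA7, a laminin receptor known from muscle. ITGAE averaged 7.58 ± 0.08 in treated and 7.74 ± 0.07 in DMSO lineages on the log2 scale (SD, n = 7 and 3), a difference of -0.17 (limma adjusted p = 0.317). ITGA7 averaged 8.14 ± 0.31 in treated and 7.42 ± 0.74 in DMSO lineages, a difference of 0.72 (limma adjusted p = 0.317), and the groups overlapped, with R8, at 8.27, within the treated range. Members had a median difference of 0.098, beside -0.0036 over all tested genes.

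The separation of ITGB2 was largest in late libraries. At time point 1 its level was 331 at the lowest, 354 at the median and 546 at the highest in 6 treated lineages, against 428, 315 and 322 in R8, R9 and R10. At time point 8 the treated lineages had 172, 223 and 278 at the lowest, median and highest (n = 6), against 424 in R8, 1479 in R9 and 328 in R10. The groups overlapped at time point 1, and at time point 8 all treated lineages were lower, as 2.4% of all tested genes also did not overlap there.

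At time point 9 ITGB2 was at 79.3 in R1, 423 in R4 and 247 in R5, against 369.6 in R8, 1740.1 in R9 and 982 in R10. At time point 10 it was at 35.2 in R2, 131 in R5 and 348 in R6, against 419.7 in R8 and 1686 in R10. R9 and R10 were high and R1 and R2 low, R4 exceeded R8 at time point 9, and at time point 10 the arms did not overlap (15.9% of all tested genes). The log2 difference was -1.41 at time point 8 (adjusted p = 0.330), -2.08 ± 0.49 at time point 9 (adjusted p = 0.0237) and -2.83 ± 0.55 at time point 10 (adjusted p = 0.0103), all from limma in a fit shared by 72 libraries. ITGB2 was the only one of 27 members called at these 2 time points, beside 1.33% of all tested genes at time point 9 (0.542% higher and 0.79% lower) and 0.0618% at time point 10 (0.0343% higher and 0.0275% lower). Without the 4 late DMSO libraries the differences were -0.86 and -1.83, with adjusted p-values of 0.945 and 0.340, but R8 was then the only DMSO library at either time point and was assumed to vary like the other groups. Without the 2 late treated libraries they were -1.41 and -1.97, with adjusted p-values of 0.128 and 0.142. The call at time point 9 was also lost without R1 or R9, and that at time point 10 without R2 or R10.

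Of the 4 alpha partners of ITGB2, ITGAM and ITGAL were high in the same 4 DMSO libraries, and ITGAX and ITGAD were not above all others. ITGAM, the alpha chain of the complement receptor Mac-1, was at 82.1 and 142 in R9 at time points 8 and 9 and at 37.4 and 33.0 in R10 at time points 9 and 10. In all 49 treated libraries it was at 3.20 or less, in the 19 other DMSO libraries at 4.55 or less, and in the parental line at 1.30. ITGAL, the alpha chain of LFA-1, was at 48.2 and 69.1 in R9 and at 17.8 and 65.9 in R10 at the same time points, against 6.78 or less in treated and 5.54 or less in other DMSO libraries. These were the only 4 of 73 libraries in which either gene reached 10. The other partners stayed below 10 there, with ITGAX at 8.35 or less and ITGAD between 2.79 and 6.64. ITGAM and ITGAL were not tested, as their means were below 10, and the libraries were picked for standing apart, so that these values are a description.

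**Figure D3:**
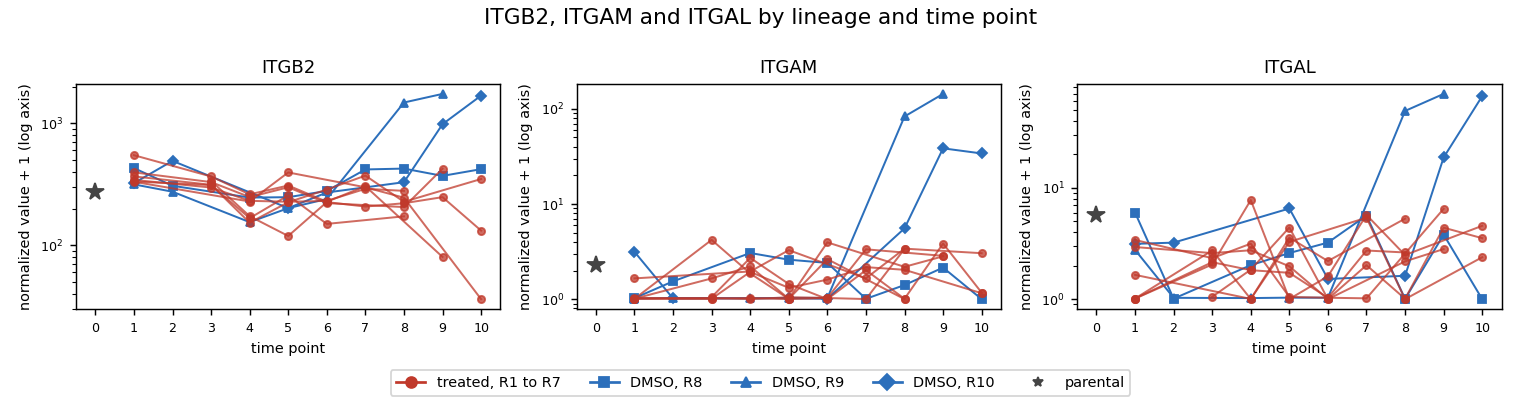
Normalized value plus 1 (log axis) of ITGB2, ITGAM and ITGAL by time point, with 1 line for each treated lineage (red circles) and DMSO lineage (blue symbols) and a star for the parental line. R9 from time point 8 and R10 from time point 9 lay above every other library in all 3 panels.

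Blood cell markers gave mixed values in the same 4 libraries. The summed level of the 12 markers was 772 to 3033 there, against 903 or less in the 19 other DMSO libraries and 299 to 837 in treated ones. LCP1, an actin-bundling protein of white blood cells that many tumour lines also carry, made up much of it with 427 to 1952. In treated libraries LCP1 was at 740 or less and in other DMSO libraries at 823 or less. CD79A of the B cell receptor reached 322 to 1049.9, against 238 or less in treated and 179.5 or less in other DMSO libraries. PTPRC, the marker of all white blood cells, was at 2.79 to 20.3 in the 4 libraries. Its median was 5.75 in the 47 other treated and 6.23 in the 19 other DMSO libraries. CD14 was at 4.07 to 12.4 in the 4, against 6.52 or less in treated and 8.85 or less in other DMSO libraries. CSF1R (7.12 to 16.0) and SPI1 (3.45 to 6.11) lay within the range of the other DMSO libraries. CD3E was at 1.44 or less, CD3D, MS4A1, LYZ and TYROBP at 0.838 or less and HBB at 0.756 or less in the 4 libraries. KRT18 of simple epithelia stood at 308 to 1164 in them, against 314 or less in treated and 139 or less in other DMSO libraries. None of the other epithelial markers exceeded all other DMSO libraries in all 4. KRT8 was at 74.9 to 223, against 122 or less in other DMSO libraries, and ESRP1 at 42.4 to 151, against 182 or less. EPCAM, GRHL2 and KRT7 were at 2.79 or less in the 4. FERMT3 (kindlin-3), which activates integrins in blood cells, was at 372 to 1075 there, against 230.1 or less in treated and 140.4 or less in other DMSO libraries. ICAM1, the ligand of ITGAL-ITGB2 and ITGAM-ITGB2, was at 469.9 to 1701, against 343 or less in treated and 174 or less in other DMSO libraries. The part of other cells in these values was not tested.

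Over time, 15 of 27 members changed in the treated lineages (limma on the mean slope of 7 lineages, adjusted p under 0.05), beside 39.1% of all tested genes. The fit held all 10 lineages with 1 shared spread, so the SEs and p-values of slopes in either arm draw on both arms. 12 rose, 10 integrin chains and 2 cadherins, beside 16.3% of all genes rising, and 3 fell, beside 22.8% of all genes falling. The median slope was 0.059 log2 units per time point over the members and -0.0076 over all tested genes. In all 7 lineages the slope was positive for 5 members (10.9% of all genes) and negative for 2 (14.7%). Without time point 1, when 8.18% of all tested genes were called, 1 of the 15 members was (ITGAE, slope -0.079, adjusted p = 0.0373), and the other 14 kept their sign but missed the threshold. R5, the only lineage without a library at time point 1, had slopes of -0.11 for CDH13, -0.066 for ITGA3, -0.048 for CDH20, -0.011 for ITGB1 and -0.010 for ITGA4, while those of the other 7 rising members were positive, between 0.0043 for ITGAV and 0.33 for ITGB7.

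**Figure D4:**
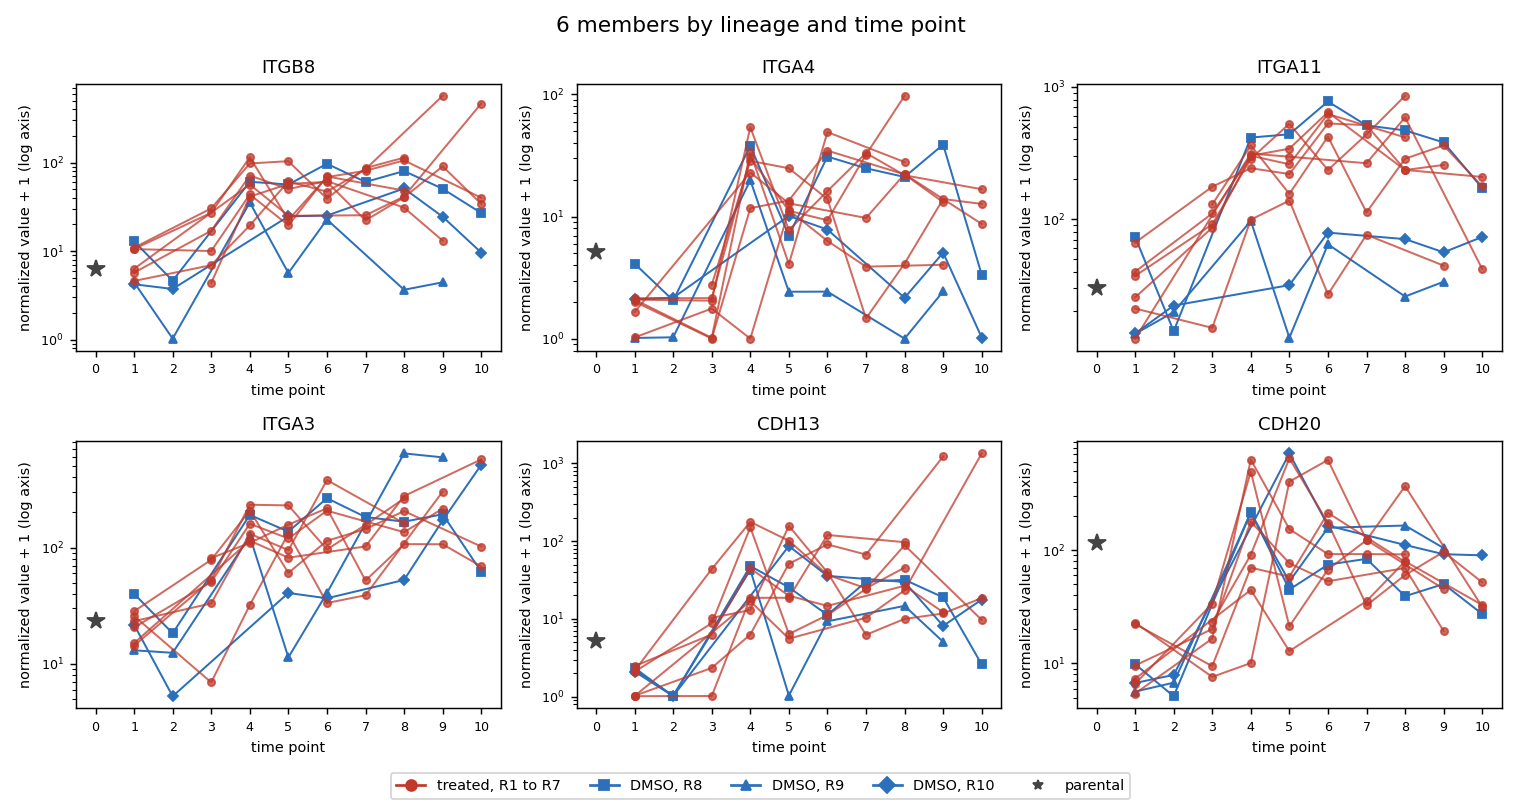
Normalized value plus 1 (log axis) of 6 members by time point, with 1 line for each treated lineage (red circles) and DMSO lineage (blue symbols) and a star for the parental line. Low values at time points 1 to 3 were followed by higher ones from time point 4 in most lineages of both arms, and R1 and R2 ended with CDH13 at 1227 and 1342.

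Of the collagen receptors ITGA11 rose, ITGA1 missed the threshold, and ITGA2 and ITGA10 were not tested. ITGA11, a collagen receptor of mesenchymal cells, was at 25.9 at the lowest, 285 at the median and 856 at the highest in the 37 treated libraries from time point 4 on. In the 12 early treated libraries, of time points 1 and 3, it was at 11.5, 52.1 and 175. The ranges overlapped, with 8 of the 37 later libraries below the early maximum. Its slope was 0.30 ± 0.06 per time point (mean of 7 lineages, SE of the shared fit, limma adjusted p = 0.00340), positive in 7 of 7 lineages. ITGA1, also a collagen receptor, had a slope of 0.22 that missed the threshold (adjusted p = 0.134), with R1 and R2 negative.

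The laminin receptors ITGA3 and ITGA7 rose as well. ITGA3 had 31.0, 131 and 570.1 at the lowest, median and highest in later treated libraries and 5.94, 26.1 and 80.0 in early ones. Its slope was 0.35 ± 0.07 (limma adjusted p = 0.00446), positive in 6 of 7 lineages. ITGA7 had 71.7, 335 and 1651 in later and 90.0, 153 and 498 in early treated libraries, with a slope of 0.19 ± 0.03 (limma adjusted p = 0.00234), positive in all lineages but R4. ITGA6, a laminin receptor of epithelia and stem cells, had a slope of 0.23 (adjusted p = 0.0956). ITGB4, the partner of ITGA6 in hemidesmosomes, was called at 0.068 (adjusted p = 0.0468), a call that was lost in 8 of 10 fits that each left out 1 lineage, all but those without R1 or R6.

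ITGB8, which pairs with ITGAV and releases active TGF-beta, had the smallest p of the members. It was at 12.1, 55.4 and 566 at the lowest, median and highest in later treated libraries and at 3.37, 9.28 and 29.3 in early ones. The slope was 0.40 ± 0.07 (limma adjusted p = 0.00208) and was positive in 7 of 7 lineages, from 0.14 in R4 to 0.86 in R1. ITGA4, which binds VCAM1 and fibronectin, had a median of 12.9 and a maximum of 96.5 in later treated libraries and was at 1.77 or less in all 12 early ones. 2 of the 37 later libraries lay below the early maximum, and the slope was 0.40 ± 0.08 (limma adjusted p = 0.00350).

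The abundant chains rose by less. ITGB1 had a slope of 0.061 (adjusted p = 0.0154), ITGA5 of 0.083 (adjusted p = 0.0172) and ITGAV of 0.038 (adjusted p = 0.0205), all in limma. ITGB1 was at 4545, 6024 and 10375 at the lowest, median and highest in later treated libraries, against 4176, 4735 and 5469.9 in early ones. ITGB7, a beta chain of lymphocytes, had a slope of 0.15 (adjusted p = 0.0168) at levels no higher than 24.6 in treated libraries. 42.1% of its exon bases overlap ZNF740 on the opposite strand, and since the use of strand in counting is not given, the reads of the 2 genes cannot be told apart.

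Of the cadherins, CDH13 and CDH20 rose. CDH13 (T-cadherin), a cadherin without a cytoplasmic tail, had the steepest slope of the 27, 0.59 ± 0.15 (limma adjusted p = 0.00979). It had a median of 23.3 and a maximum of 1342 in later treated libraries and a median of 1.25 and a maximum of 42.7 in early ones, and 23 of the 37 later libraries lay below the early maximum. CDH20, a type II cadherin, was at 9.07, 77.7 and 644 at the lowest, median and highest in later treated libraries and at 4.42, 12.1 and 32.6 in early ones. Its slope was 0.29 ± 0.06 (limma adjusted p = 0.00543). In the parental line, 1 library, CDH20 (116), ITGB1 (6138.5), ITGA4 (4.12) and ITGB4 (74.1) were above all early treated libraries. ITGA3, ITGA5, ITGA11, ITGAV, ITGB7, ITGB8 and CDH13 were there within the early treated range, and ITGA7 (71.1) was below it.

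The 3 members that fell were ITGAE, CDH3 (P-cadherin) and ITGB2. CDH3 had 65.1, 201 and 406 at the lowest, median and highest in later treated libraries and 199.8, 410.1 and 455 in early ones, with a slope of -0.16 ± 0.05 (limma adjusted p = 0.0285) that was negative in 7 of 7 lineages. ITGAE had a slope of -0.051 (adjusted p = 0.0242), negative in all 7 lineages. ITGB2 had a slope of -0.12 (adjusted p = 0.0437), negative in 6 of 7. The ITGB2 call was lost without R1, R2, R3, R4, R7 or R10, and without the 2 late treated libraries the slope was -0.067 (adjusted p = 0.108). The CDH3 call was lost without R1, R2 or R3, that of ITGAE without R4, that of ITGAV without R2 or R3 and that of ITGB7 without R3. Without the 2 late treated libraries CDH3 (-0.13, adjusted p = 0.0543) and ITGAE (-0.041, adjusted p = 0.0675) also missed the threshold. Of the exon bases, 11.1% of CDH3, 6.4% of ITGAE and 4.5% of ITGB2 overlap a gene on the opposite strand.

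RefSeq promoter entries on GRCh38.p14 were matched for 29 of the 49 genes. The 250 bases before the start are given for 3 members that rose in treated lineages and whose window holds no annotated exon: CDH20 and ITGA11, whose later treated median was 6.44 and 5.47 times the early one, and ITGAV, whose treated slopes all exceeded those in DMSO. The ITGAV slope difference between the arms was not called. For ITGAV, which has another entry, the outermost start was used. Capitals mark GGAA or, for the other strand, TTCC, the core bound by ETS factors such as FLI1.
CDH20 promoter, chr18:61333180-61333429, plus strand: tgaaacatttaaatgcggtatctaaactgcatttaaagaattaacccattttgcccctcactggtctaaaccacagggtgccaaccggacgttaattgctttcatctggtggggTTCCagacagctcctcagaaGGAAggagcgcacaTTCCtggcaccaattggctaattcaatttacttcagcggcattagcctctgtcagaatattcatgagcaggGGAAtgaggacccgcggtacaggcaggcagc
ITGA11 promoter, chr15:68432164-68432413, minus strand: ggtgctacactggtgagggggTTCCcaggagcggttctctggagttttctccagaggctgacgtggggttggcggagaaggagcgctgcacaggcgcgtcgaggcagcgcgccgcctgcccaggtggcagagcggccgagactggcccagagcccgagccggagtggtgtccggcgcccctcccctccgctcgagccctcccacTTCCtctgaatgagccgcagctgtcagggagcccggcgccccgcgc
ITGAV promoter, chr2:186589806-186590055, plus strand: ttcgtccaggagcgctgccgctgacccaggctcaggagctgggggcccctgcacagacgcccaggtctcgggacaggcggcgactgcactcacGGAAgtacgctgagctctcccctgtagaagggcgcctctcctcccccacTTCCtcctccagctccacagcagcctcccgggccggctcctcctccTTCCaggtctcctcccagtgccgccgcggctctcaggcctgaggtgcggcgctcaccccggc
The CDH20 window holds 2 GGAA and 2 TTCC, the ITGA11 window 2 TTCC, and the ITGAV window 1 GGAA and 2 TTCC. Counting both strands, 92.7% of all 35116 RefSeq promoter windows of this length hold at least 1. The repeat GGAAGGAA is in 3.06% of all windows and in 3 of the 45 windows of these families.

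The DMSO lineages moved in part the same way. 3 of 27 members were called in their slopes, all rising, beside 12.3% of all tested genes called, 6.11% rising and 6.14% falling. ITGA3 had 0.49 ± 0.11 per time point (adjusted p = 0.0235), CDH20 0.41 ± 0.10 (adjusted p = 0.0258) and ITGA7 0.18 ± 0.05 (adjusted p = 0.0442), in limma. These are means of 3 lineages, with SEs and p-values from the spread shared with the treated lineages. CDH20 was at 26.3 to 713 in the 17 later DMSO libraries and at 4.13 to 8.85 in the 6 of time points 1 and 2, without overlap. It was at 116 in the parental line, above these early libraries and within the later range. CDH23, a cadherin of hair cell tip links, at 0.29 (adjusted p = 0.0525) and ITGB2 at 0.19 (adjusted p = 0.0701) missed the threshold. Without the 4 late DMSO libraries CDH20, ITGA11 and ITGB8 were called, beside 19.0% of all tested genes, and ITGB2 had a slope of -0.047. None was called without time point 1 (0% of all tested genes), without R9 (0.343%) or without R10 (0.254%), and the ITGA7 call was also lost without R2, R3, R6, R7 or R8. In all 3 lineages the slope was positive for 14 members (23.3% of all genes) and negative for 6 (32.3%).

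The difference between the arms in slope was called for 0 of 27 members and for 0% of the tested genes, in limma with 6 members and 1373 genes at an unadjusted p under 0.05. ITGB2 again had the smallest p. Its slopes were -0.28, -0.27, -0.16, -0.035, -0.051, 0.011 and -0.038 in R1 to R7, against 0.038, 0.34 and 0.19 in R8 to R10. The groups did not overlap, as for 2 of 27 members (ITGB2 and ITGAV) and 1.85% of all tested genes. The means were -0.12 ± 0.12 in treated and 0.19 ± 0.15 in DMSO lineages (SD, n = 7 and 3), a difference of -0.31 (limma adjusted p = 0.493, unadjusted exact permutation p = 0.00833). Without the 4 late DMSO libraries it was -0.070. CDH4 had mean slopes of 0.049 ± 0.11 in treated and -0.15 ± 0.13 in DMSO lineages, neither past the threshold, and a difference of 0.20 (adjusted p = 0.493). For ITGAV the treated slopes were all above the DMSO slopes, with means of 0.038 ± 0.033 in treated and -0.016 ± 0.019 in DMSO lineages. Both differences changed sign without the 4 late DMSO libraries, at -0.026 and -0.0024.

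**Figure D5:**
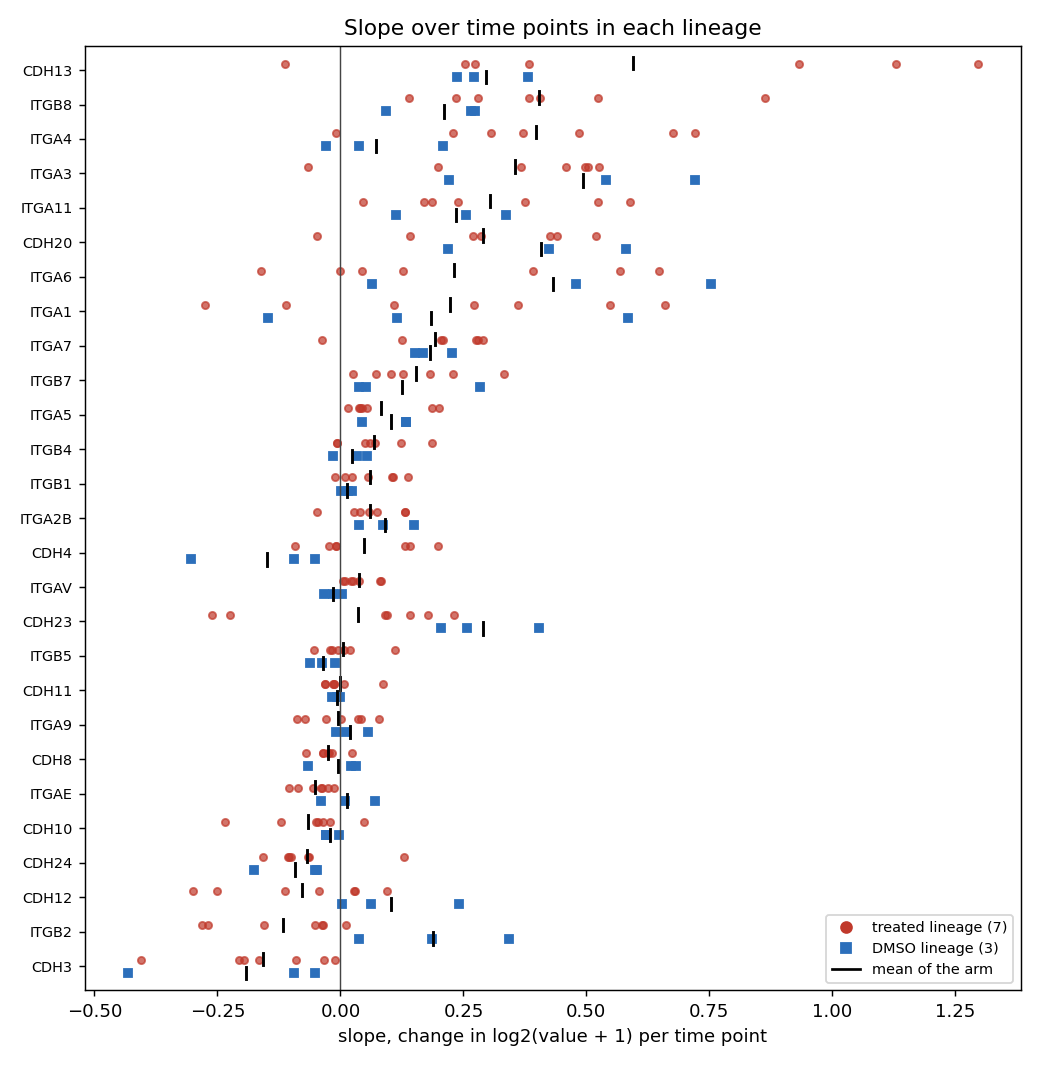
Slope of log2(value + 1) per time point in each treated lineage (red circles, upper) and DMSO lineage (blue squares, lower) for the 27 tested members, ordered by the mean treated slope; black bars mark the mean of each arm. CDH13 and ITGB8 had the highest treated means, 0.59 and 0.40, and for ITGB2 and ITGAV the points of the arms did not overlap.

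The 3 DMSO lineages differed among themselves in several integrins. For ITGA11 the time-adjusted log2 level was 5.34 to 7.69 over the treated lineages, against 7.79 in R8, 4.84 in R9 and 5.52 in R10. ITGB8 was at 4.55 to 5.64 in treated lineages, against 5.07 in R8, 2.62 in R9 and 3.87 in R10. ITGA4 showed the same order, with 1.47 to 3.54 in treated lineages, against 3.34 in R8, 0.89 in R9 and 1.69 in R10. R8 was at the level of most treated lineages in these 3 genes, and R9 and R10 were lower. The treated lineage R1 was below R10 for ITGA11 (5.34) and ITGA4 (1.47). In limma without R8, with R9 and R10 as the only DMSO lineages, 6 members differed between the arms over the whole course. They were CDH24, ITGA11, ITGA4, ITGA7, ITGB2 and ITGB8, beside 1352 genes, or 9.28% of all tested genes. The calls of ITGA11, ITGA4 and ITGB8 rest on the same values as the description above. Leaving out any 1 of the other 9 lineages gave 0 members and 0 genes.

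The 2 late treated libraries, of R1 and R2, had the extreme levels of many members. 7 of 27 members were above all 47 other treated libraries in both, beside 9.81% of all tested genes, and 2 were below, beside 12.5%. CDH13 was at 1227 and 1342, against 176 or less in the other treated libraries. ITGA5 was at 8236 and 8882, against 3411 or less, and ITGB8 at 566 and 462.5, against 114 or less. ITGB1 (9539 and 10375, against 8236 or less), ITGA6 (134 and 173, against 63.9 or less), ITGA7 and CDH11 completed the 7. Below all others were ITGB2 and CDH12, a type II cadherin of brain, with CDH12 at 43.9 and 23.7, against 107 or more. In the same libraries the integrin ligand FN1, the fibronectin gene, was at 114345, against 64974 or less in other treated libraries. FN1 had the same value in both, also the highest of the mitochondrially encoded COX1 in other treated libraries, as quantile-normalized values follow ranks. The ligand TNC (tenascin-C) was at 64974 to 90305, against 5773 or less. In the 2 late treated libraries the summed level of 10 muscle and fibroblast markers was 24491 to 31820, against 16974 or less. COL3A1 made up most of that sum with 16338 to 22787, against 9663 or less. ACTA2 (4558 to 4760, against 3771 or less) and PDGFRB (2090 to 2574, against 2005 or less) also exceeded all other treated libraries. THY1, at 1300 to 1386, was within their range. DCN was low at 28.9 to 30.8, against 46.0 or more. LUM was at 144 to 197 and PDGFRA at 0.016 to 1.38, against medians of 626 and 10.9. The summed level of the 10 Ewing sarcoma markers was 34135 to 38910, against 52647 or more. NR0B1 was at 840 to 997, against 1526 or more, CCND1 at 18942 to 21176, against 31434 or more, and STEAP1 at 261 to 287, against 510 or more. FLI1 (1045 to 1075), EWSR1 (2389 to 2438), PRKCB (9268 to 11752), LIPI (1251 to 1263) and NKX2-2 (11.6 to 44.3) lay within the range of the other treated libraries. The part of these changes in the values of the members was not tested.

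In the 4 late DMSO libraries 2 tested members, ITGA5 and ITGB2, exceeded all 19 other DMSO libraries, beside 4.37% of all tested genes, and none was below all of them (2.2% of all genes). ITGA5 was at 3613 to 4361 in the 4, against 3186 or less in the others. In the R9 libraries CDH12 was at 800.3 and 801.1, above all 19 others, whereas CDH3 was at 36.4 and 37.7, against 133 or more. CDH4 was at 622 and 181 in R9, against 638 or more in the 19 others.

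A second set of libraries had high CDH4, and part of the set also had high CDH20. CDH4 was highest in R1 at time points 5, 6 and 9, R6 and R7 at time point 4, R10 at time point 5, R9 at time point 4 and the parental line, with 2948 to 6674 in these 8. 5 of them were also among the 8 highest libraries of CDH20, at 401 to 713. 6 were among the 8 lowest of CDH23, at 26.2 to 47.0. 4 were among the 8 highest of ITGA9, an alpha chain that binds tenascin, at 68.9 to 139. These libraries were chosen after the values were seen and no test was made. 18.9% of the exon bases of CDH23 overlap C10orf105 on the opposite strand. The CDH4 level was 789 to 1971 in the 12 early treated and 1067 to 1521 in the 6 early DMSO libraries, against 3805 in the parental line.

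At single time points before 9, limma called 0 of 27 members (0% of all tested genes at time points 1, 4, 5, 6, 7 and 8). At an unadjusted p under 0.05 there were 0, 1, 2, 1, 0 and 4 members at these time points, in that order, beside between 182 and 1475 genes. The arms did not overlap for 0 of 27 members at time point 1 (2.84% of all tested genes), for ITGA2B, the platelet alpha chain, at time point 4 (5.73%), for none at time point 5 (0.33%), for CDH12 at time point 6 (2.71%), for ITGB2 at time point 8, and for ITGA2B and ITGAV at time point 9 (8.03%). At time point 10, with 3 treated and 2 DMSO libraries, they did not overlap for 5 of 27 members, beside 15.9% of all tested genes, with ITGA4, ITGA7 and ITGB8 higher and ITGAE and ITGB2 lower in treated lineages. The smallest p-values were those of CDH10, ITGAE and CDH8 at time point 1, ITGA2B, ITGA1 and CDH23 at time point 4, ITGA11, ITGA3 and CDH23 at time point 5, ITGA2B, ITGB5 and ITGA7 at time point 6, and ITGAE, ITGA4 and ITGA3 at time point 7. The log2 difference of the first of each was 0.93, -0.84, 2.17, 0.60 and -0.42, none past the threshold. At time point 7 the only DMSO library was that of R8. At time point 8 ITGA4 was at 3.13, 21.2 and 96.5 at the lowest, median and highest in 6 treated lineages, against 20.1 in R8, 0.0035 in R9 and 1.17 in R10. The difference was 2.64 ± 0.92 on the log2 scale (limma adjusted p = 0.377), with R8 inside the treated range.

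The members were next compared by the last treatment given. After VDC against after EC, with a block for lineage and a linear time term over 49 treated libraries, limma called 0 of 27 members (0% of all tested genes), with 8 members and 2118 genes at an unadjusted p under 0.05. ITGA4 came first, at 0.0053, 2.89 and 32.2 at the lowest, median and highest in 27 libraries after VDC, against 0.0035, 21.0 and 96.5 in 22 after EC. The groups overlapped throughout, and the difference was -1.29 ± 0.41 (adjusted p = 0.139). ITGB1 was at 4176, 4928 and 9539 after VDC, against 4545, 6555 and 10375 after EC, a difference of -0.22 ± 0.08 (adjusted p = 0.182). CDH20 had a difference of -1.23 ± 0.50 (adjusted p = 0.235), with medians of 22.1 after VDC and 78.2 after EC. 12 of the 27 libraries after VDC were from time points 1 and 3, and from time point 4 on the medians after VDC and after EC were 75.6 and 78.2 for CDH20, 10.3 and 21.0 for ITGA4, and 5739 and 6555 for ITGB1.

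The proteins that act with these families were read from 3 lists. Of 28 integrin adaptors and signalling genes 26 were tested. In the treated slopes 7 rose and 0 fell, beside 16.3% of all tested genes rising and 22.8% falling. Their median slope was 0.018, beside -0.0076 over all genes. LIMS2 (PINCH-2) had a slope of 0.21 (adjusted p = 0.00341) and ZYX (zyxin of focal adhesions) 0.14 (adjusted p = 0.00326). In the DMSO slopes FERMT3 (0.24, adjusted p = 0.0227) and LIMS2 (0.26, adjusted p = 0.0267) rose and VCL (vinculin) fell by 0.058 (adjusted p = 0.0404), all in limma. Among all tested genes 6.11% rose and 6.14% fell in the DMSO slopes.

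Of 33 integrin ligands 28 were tested. In treated slopes 14 rose and 3 fell, beside 16.3% of all tested genes rising and 22.8% falling. In DMSO slopes 7 rose and 2 fell, beside 6.11% and 6.14%. TNC had 0.64 in treated and 0.71 in DMSO lineages, COL1A1 (collagen I) 0.39 in treated lineages, ICAM1 0.27 in treated and 0.73 in DMSO lineages, and THBS1 (thrombospondin-1) 0.33 in treated lineages, each past the threshold in limma. The median slope of the ligands was 0.093 in treated and 0.042 in DMSO lineages. The difference in slope between the arms was called for 0 of 28 ligands and 0 of 26 adaptors, beside 0% of all tested genes.

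Of 15 cytoplasmic partners of cadherins 12 were tested, and 1 fell in the treated slopes, beside 22.8% of all tested genes. It was CTNND1 (p120-catenin), by 0.055 per time point (limma adjusted p = 0.00840). In DMSO slopes CTNND2 (delta-catenin) rose by 1.00 (adjusted p = 0.0227) and CTNNB1 (beta-catenin) fell by 0.064 (adjusted p = 0.0275). The shares over all tested genes there were 6.11% rising and 6.14% falling. CTNND2 was at 1395 to 3542 in the 4 late DMSO libraries, against 7.39 or less in treated and 49.6 or less in other DMSO libraries. At time point 9 CTNND2 (-7.10, adjusted p = 0.0219) and PKP2 (plakophilin-2, -1.67, adjusted p = 0.0389) were lower in treated than in DMSO lineages, as was the adaptor TNS1 (tensin-1, -0.81, adjusted p = 0.0323). All 13 mitochondrially encoded genes fell in the slopes of both arms, beside 22.8% of all tested genes in treated and 6.14% in DMSO slopes. They fell by 0.057 to 0.17 in treated and 0.11 to 0.27 in DMSO lineages, beside the changes of the members.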

How the data were processed

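The Qiagen AllPrep kit yielded the RNA, per the labels' protocols, and STAR, featureCounts and GRCh38 are named in the submitters' processing notes, with versions, strandedness and read depth not given in the sources used here. The deposited signal values are counts that the authors quantile-normalized, the treated columns apart from the DMSO and parental columns: treated columns share a total of 13583500 and the others a total of 13582500, so depth is unknown and no counting interval can be given. Counts themselves were not used.

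Here log2(value + 1) of 14565 genes averaging 10 or more was fitted with limma 3.58.1 (trend, R 4.3.3) and p-values were Benjamini-Hochberg adjusted over all of them, at a threshold of 0.05. Slopes and time-adjusted levels were computed per lineage, 7 treated and 3 DMSO, single time points in a shared fit of 72 libraries, and VDC against EC with lineage as a block. Treated and DMSO lineages share no replicate numbers. Residuals of libraries of 1 lineage correlated by 0.0814 on average over 219 pairs, and by 0.231 over the 43 pairs of neighbouring time points, against -0.0152 over 1050 pairs of other lineages. Nothing states how separate the cultures of the lineages were. The p-values of levels and slopes measure the spread between these lineages, pooled over both arms in 1 fit, which may be technical. Those at single time points measure the spread between libraries of the same arm and time point, pooled over time points without a lineage term. Those of VDC against EC measure the spread within lineages. The fit was tested on simulated data with independent noise in each library, which does not cover the correlation of libraries within a lineage. Figures were drawn with matplotlib 3.10.9.

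Named were members past the threshold in any comparison, otherwise the 3 smallest p-values, the 3 highest of each family, and ITGB1, ITGB2, ITGAV, CDH1, CDH2 and CDH11; CDH5, ITGAM, ITGAL, ITGA9 and the late-library members were named after their values were seen. Members and lists were chosen with earlier results of these data known. Alternatives were another pseudocount (5), other filters, other fits and libraries, time points or lineages left out; those without all 6 late libraries and with time points 1 to 8 only were chosen after seeing the data. Exons are those of GENCODE v29.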

Additional observations from a re-analysis of the deposited data

Results flagged for a closer look

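Among 54 groups of 7 treated lineages (the level and the slope of each tested member), 8 held a lineage far from the other 6, where chance gives about 1 in 20. R1 was the lineage in 6 of them. Its time-adjusted log2 level was 6.33 for CDH23 (8.44 to 9.03 in the other 6), 1.47 for ITGA4 (2.73 to 3.54), 5.34 for ITGA11 (6.95 to 7.69) and 1.65 for ITGA1 (3.49 to 4.13), each lower, and 11.2 for CDH4 (10.09 to 10.4), which was higher. The CDH11 slope of R1 was 0.086 log2 units per time point, against -0.032 to 0.0079 in the others. R5 had a CDH24 slope of 0.13, against -0.16 to -0.065 in the others. R4 had the lowest ITGB1 level, 12.4 (12.36), against 12.47 to 12.55 in the others.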

How the results depend on the processing

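Of the values of single members recomputed under all alternatives, 890 kept direction and side of the threshold, 83 lost the threshold, 18 gained it and 7 changed sign. Counts of members called moved as follows, with the share of all genes tested in parentheses. Treated slopes gave 1 without time point 1 (8.18%). DMSO slopes gave 5 with genes of mean at least 1 (9.75%), 0 with no filter (1.18%), 6 without the 2 late treated libraries (15.3%), 0 without time point 1 (0%), 5 without all 6 late libraries (22.8%) and 8 with time points 1 to 8 only (23.7%). Time points 9 and 10 each gave 0 without the 4 late DMSO libraries (0%), without the 2 late treated libraries (0.206% and 0.0275%) and in a separate fit per time point (0%). VDC against EC gave 1 (ITGB2) without the 2 late treated or all 6 late libraries (0.343%), and 8 with no time term (7.58%). Leaving out 1 lineage gave 0 to 6 over all time points, 10 to 15 for treated slopes, 0 to 5 for DMSO slopes, 0 to 1 for their difference, 0 to 4 at time point 8, 0 to 3 at time point 9, 0 to 1 at time point 10, 0 to 1 for VDC against EC, and 0 at time points 1, 4, 5, 6 and 7. The causes were not tested.

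Changed in sign were the ITGB2 slope in DMSO lineages (-0.047 without the 4 late DMSO or all 6 late libraries), the slope differences of CDH4 (-0.026 and -0.033) and ITGAV (-0.0024 and -0.013) under the same 2 settings, and ITGB2 at time point 4 (-0.26 to 0.41 without 1 lineage, the lowest without R9 and the highest without R8). With lineage as a random replicate block the counts were 0 over all time points, 1 at time points 9 and 10 and 0 at the earlier ones, and VDC against EC without the replicate block gave 0, so the block changed no count of members. With depth unknown, levels below 10 cannot be given a counting error, and with 1 DMSO library at time point 7 its spread is assumed to be that of the other groups.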
